A study of Mus musculus with 6 samples.

Results

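The interferon gamma and CXCR3 ligand axis was described here through 9 genes, which were chosen by symbol, with earlier results of these data known. They are the cytokine gene Ifng, the receptor genes Ifngr1 and Ifngr2, the induced regulators Irf1 and Socs1, the chemokine genes Cxcl9, Cxcl10 and Cxcl11, and the chemokine receptor gene Cxcr3. All 9 were found among the 55536 genes of the count table, and all 9 were among the 15374 genes kept after the filter on low counts. Interferon gamma is made mainly by activated T cells and NK cells. It binds a receptor of the IFNGR1 and IFNGR2 chains, which activates the kinases JAK1 and JAK2 and leads to the induction of target genes such as Irf1 and the CXCR3 ligands. CXCL9, CXCL10 and CXCL11 draw CXCR3-bearing T cells and NK cells into tissue, and in tumors they are known as a sign of T cell recruitment.

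The libraries were made from RNA of bulk tumors that grew after 1000000 HCA-1 cells, a murine hepatocellular carcinoma (HCC) line, had been placed in the livers of male C3H mice (C3H/HeNCrNarl in the study's methods) aged 6 to 8 weeks. The control group held 3 untreated tumors (controls 5, 6 and 7), and the GOX_DOX group held 3 tumors (1, 2 and 5) of mice given nanoparticles that carry glucose oxidase (GOx) and doxorubicin (DOX). The nanoparticles were injected intravenously on days 18, 19 and 20, while the labels date the transcriptome to day 17 after 3 h of circulation, although the methods place the harvest of tumors for RT-qPCR on the day after the last of these doses and give no day for sequencing. The mice had an intact immune system of their own, all tumors came from a single cell line, and no group analysed here received empty nanoparticles, GOx alone or DOX alone, so the carrier and the drugs cannot be told apart.

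Library totals lay between 15529940 and 18401178 counts. Control 5 had a Pearson's r of log2 levels of 0.966 to 0.975 with the GOX_DOX tumors, but of 0.730 with control 6 and 0.659 with control 7, across genes, which are not independent replicates. The summed level of 11 hepatocyte markers, led by albumin, reached 133483 CPM in control 6 and 220136 CPM in control 7, against 684 CPM in control 5 and 1496 to 3735 CPM in the GOX_DOX tumors. All 11 were lower in GOX_DOX tumors at an unadjusted p under 0.05 (edgeR), beside 14.6% of all genes, with overlap between groups through control 5. CPM here are counts per 1000000 after TMM scaling. Of 6 markers of liver cancer and epithelium, Krt8 and Krt18 were abundant (313 to 790 CPM). Afp (2.25 to 13.2 CPM) and Gpc3 (0.784 to 2.29 CPM) were low in all 6 libraries. The list also holds Epcam and Krt19. Of the 6, 0 were higher and 2 lower in GOX_DOX tumors at an unadjusted p under 0.05 (edgeR), beside the 14.6% of all genes that were lower. The 6 summed to 1103, 849 and 682 CPM in controls 5, 6 and 7 and to 1220, 1193 and 1386 CPM in GOX_DOX tumors 1, 2 and 5. Of their fold changes, 4 were positive and 2 negative, with a median of 0.415 on the log2 scale. Whether control 5 carries the right label, and how much of controls 6 and 7 was liver tissue, was not tested, and each fold change given here takes the labels as they stand. Fold changes of most genes of the axis are therefore given with and without control 5, and with control 5 as the only control. In bulk RNA, fewer cells of a type and less RNA per cell cannot be told apart.

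The upstream sequences of 8 of the 9 genes were matched in RefSeq on GRCm38.p6 (Cxcl11 was not matched), and the 250 bases before each start were searched on either strand for 3 motifs. These were the gamma-activated site GAS (TTCNNNGAA), named for the response to interferon gamma, the interferon-stimulated response element ISRE (GAAANNGAAA), which IRF proteins can bind, and a kappaB site (GGGANTTCC), which NF-kappaB can bind. GAS letters occurred in 7.02% of all 32851 such windows, ISRE letters in 2.98% and kappaB letters in 1.43%. The 4 windows printed here are those of the matched genes that interferon gamma induces, and capitals mark the motif letters. They are Irf1 (chr11:53769764-53770013, plus strand), Socs1 (chr16:10785537-10785786, minus strand), Cxcl9 (chr5:92328080-92328329, minus strand) and Cxcl10 (chr5:92348890-92349139, minus strand), each written 5′ to 3′ in the direction of the gene.
Irf1: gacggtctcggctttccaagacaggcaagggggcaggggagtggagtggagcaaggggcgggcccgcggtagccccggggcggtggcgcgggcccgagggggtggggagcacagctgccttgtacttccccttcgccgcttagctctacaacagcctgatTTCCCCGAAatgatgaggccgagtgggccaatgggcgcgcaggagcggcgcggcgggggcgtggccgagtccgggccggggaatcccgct
Socs1: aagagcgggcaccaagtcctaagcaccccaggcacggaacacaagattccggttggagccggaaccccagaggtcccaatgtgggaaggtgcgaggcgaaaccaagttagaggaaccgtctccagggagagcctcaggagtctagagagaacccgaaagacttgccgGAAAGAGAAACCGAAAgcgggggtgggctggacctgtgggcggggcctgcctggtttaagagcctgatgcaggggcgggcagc
Cxcl9: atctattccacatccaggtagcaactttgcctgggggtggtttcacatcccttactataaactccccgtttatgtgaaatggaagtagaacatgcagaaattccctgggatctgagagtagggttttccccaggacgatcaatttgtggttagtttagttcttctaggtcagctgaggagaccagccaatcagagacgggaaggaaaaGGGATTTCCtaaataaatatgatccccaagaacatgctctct
Cxcl10: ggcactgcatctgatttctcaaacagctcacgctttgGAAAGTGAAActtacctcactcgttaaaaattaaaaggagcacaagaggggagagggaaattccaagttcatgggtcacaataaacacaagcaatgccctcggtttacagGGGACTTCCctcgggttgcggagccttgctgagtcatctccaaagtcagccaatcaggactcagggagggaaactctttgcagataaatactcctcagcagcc

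The Irf1 window held a GAS match from -90 to -82 relative to the start, while the window of a further RefSeq start of Irf1 (chr11:53770223-53770472) held none of these letters. The Socs1 window held a pair of overlapping ISRE matches, from -83 to -74 and from -77 to -68. In Cxcl9 the match was to the kappaB letters, from -42 to -34, and in Cxcl10 there was an ISRE match from -213 to -204 and a kappaB match from -103 to -95. Ifng held a GAS match at the far end of its window, from -249 to -241, and the windows of Ifngr1, Ifngr2 and Cxcr3 held none of these letters. No match of one motif overlapped a match of another. A match is a string of letters and not a measured binding site, and these libraries hold no measure of binding.

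**Figure D1:**
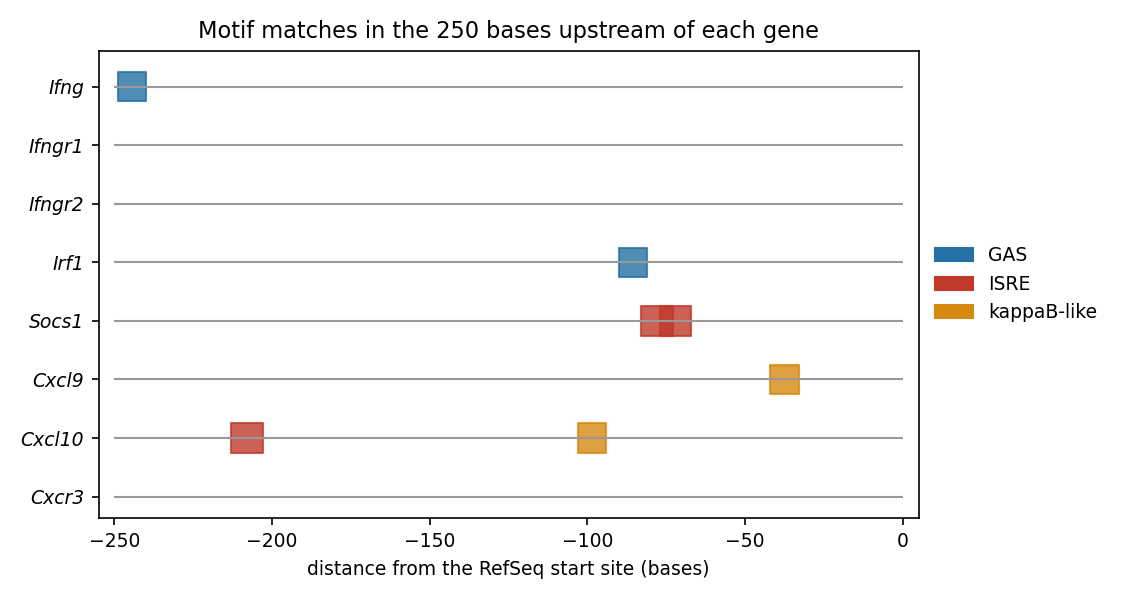
Positions of motif letters in the 250 bases upstream of the RefSeq start of 8 genes of the axis, with the distance from the start in bases on the horizontal axis. Blue boxes are GAS, red boxes ISRE and orange boxes kappaB matches; Irf1, Socs1, Cxcl9 and Cxcl10 each hold a match within 103 bases of the start, while Ifngr1, Ifngr2 and Cxcr3 hold none.

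Whether treatment with GOX_DOX nanoparticles went with a different level of the axis was tested with edgeR's quasi-likelihood test across all genes kept. With all 6 libraries, 0 of the 9 genes had an adjusted p under 0.05, as was the case for 0.0% of all 15374 genes. At an unadjusted p under 0.05 there was 1 gene of the 9, Ifngr2, beside 17.5% of all genes in either direction and 2.87% in the higher direction. The groups did not overlap for 2 of the 9 genes, Ifngr2 and Cxcl11, each higher in GOX_DOX tumors, beside 8.87% of all genes higher and 8.31% lower. Of the 9 fold changes, 8 were positive, with a median log2 fold change of 0.77 against 0.02 over all genes. DESeq2 also gave 0 of 9 genes at an adjusted p under 0.05, with values from 0.156 to 0.820, beside 9.43% of the 17812 genes to which it gave an adjusted p and 0.567% in the higher direction.

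**Figure D2:**
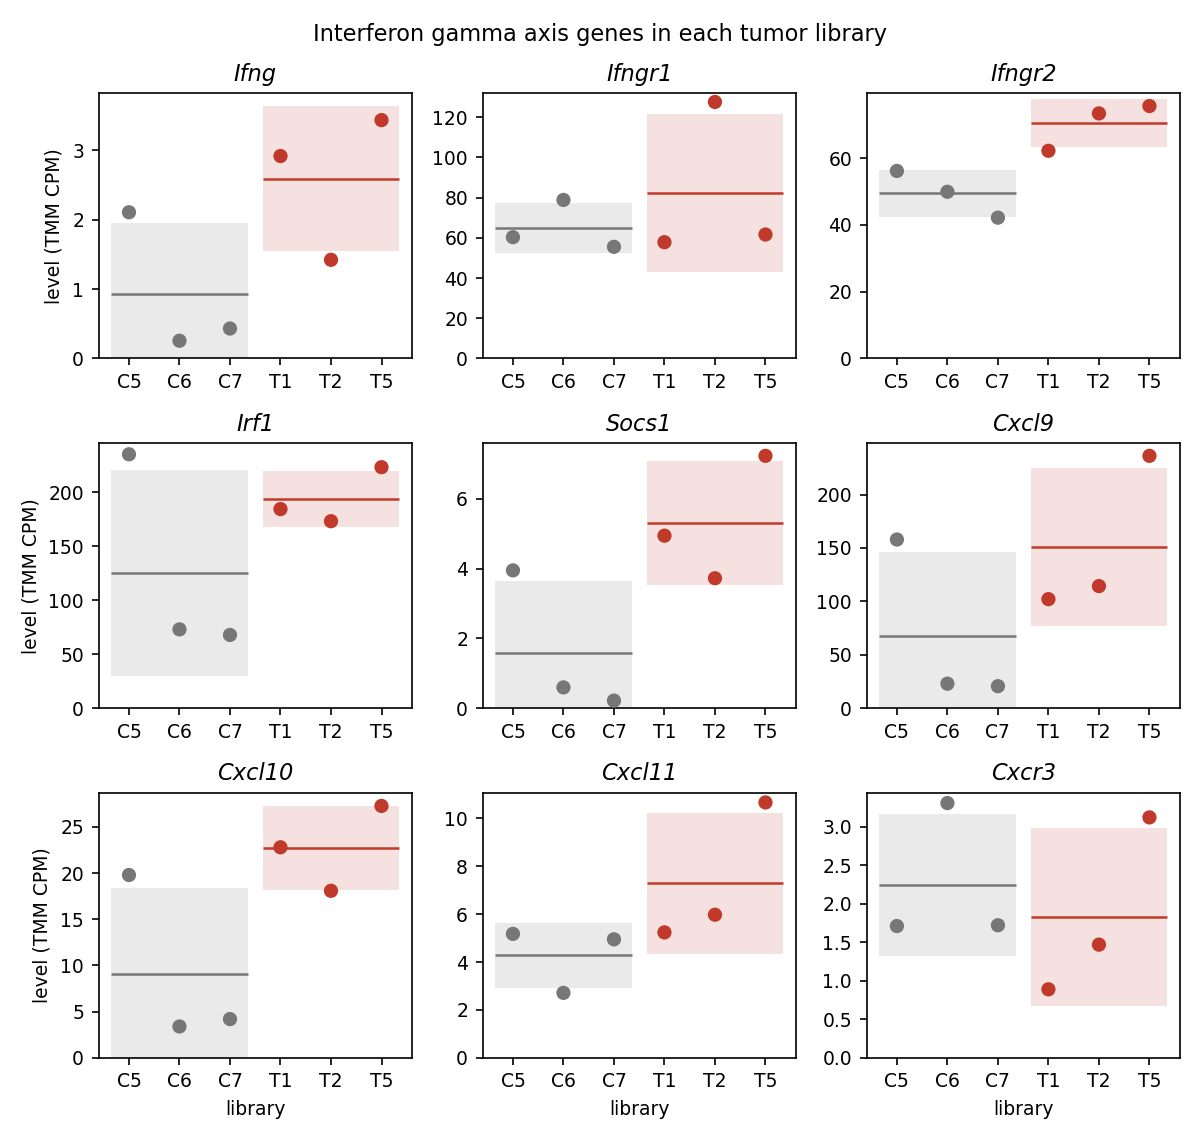
Level of each of the 9 genes in TMM CPM (vertical axis, starting at 0) in control libraries C5, C6 and C7 (grey) and GOX_DOX libraries T1, T2 and T5 (red); lines are group means and bands are ± 1 SD (n = 3, cut at 0). For Ifng, Irf1, Socs1, Cxcl9 and Cxcl10 control 5 lies with the GOX_DOX libraries and controls 6 and 7 lie below them, whereas Cxcr3 shows no such order.

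Ifng (chromosome 10, 118441046 to 118445892, GRCm38), the gene of the ligand, was sparsely covered. Its counts were 48, 3 and 4 in control tumors 5, 6 and 7 and 59, 29 and 66 in GOX_DOX tumors 1, 2 and 5, which corresponds to 2.11, 0.254 and 0.430 CPM and to 2.92, 1.42 and 3.43 CPM. Control 5 lay above GOX_DOX tumor 2 and below the other two GOX_DOX tumors, so the groups overlapped. The mean was 0.930 ± 1.02 CPM in control tumors and 2.59 ± 1.05 CPM in GOX_DOX tumors (SD, n = 3 each), and the log2 fold change was 1.38 (SE 0.81, edgeR adjusted p = 0.392). Without control 5 it was 2.95 (adjusted p = 0.00856 from edgeR), a value that rests on the 3 and 4 counts of controls 6 and 7. Such a fold change depends on the prior count of the edgeR fit, which was left at its default. With control 5 as the only control it was 0.31 (adjusted p = 0.953 from edgeR). Of the exon bases of Ifng, 25.9% also belong to Gm49751, a transcript on the same strand with 0 to 10 counts per library, so a part of the reads may have been assigned to it or left out.

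The receptor genes spanned a smaller range between libraries than the other genes of the axis. Ifngr1 (chromosome 10, 19591949 to 19610229), which encodes the ligand-binding chain, stood at 60.3, 78.9 and 55.5 CPM in controls 5, 6 and 7 and at 57.8, 127.6 and 61.7 CPM in GOX_DOX tumors 1, 2 and 5. GOX_DOX tumor 2 was high and the other two lay within the range of the controls. For Ifngr1 the log2 fold change was 0.34 (SE 0.37, edgeR adjusted p = 0.603), and without GOX_DOX tumor 2 it was -0.10. Ifngr2 (chromosome 16, 91547072 to 91565623), the chain that brings JAK2 to the receptor, stood at 56.2, 49.9 and 42.2 CPM in control tumors and at 62.2, 73.4 and 75.7 CPM in GOX_DOX tumors. Every GOX_DOX tumor lay above every control, including control 5, with means of 49.4 ± 7.02 and 70.4 ± 7.19 CPM (SD, n = 3 each). The log2 fold change of Ifngr2 was 0.51 (SE 0.20), with an unadjusted p of 0.0444 and an adjusted p of 0.275 from edgeR. The exact permutation test on its log2 levels gave p = 0.1, the smallest that 3 libraries against 3 allow. Without control 5, Ifngr2 rose by 0.64 (edgeR adjusted p = 0.0249), and with control 5 as the only control the value was 0.34 (edgeR adjusted p = 0.885). Per length, the ratio of Ifngr1 to Ifngr2 was 1.42, 2.09 and 1.74 in control tumors and 1.23, 2.30 and 1.08 in GOX_DOX tumors, so that the ligand-binding chain was the more abundant transcript in all 6 libraries.

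Irf1 (chromosome 11, 53770014 to 53778374), the transcription factor gene with the GAS match shown above, was an abundant gene of the axis. It stood at 235, 72.9 and 67.8 CPM in controls 5, 6 and 7 and at 184, 173 and 223 CPM in GOX_DOX tumors 1, 2 and 5. Control 5 had the highest value of all 6 libraries, and controls 6 and 7 the lowest. The log2 fold change of Irf1 was 0.63 (SE 0.53, edgeR adjusted p = 0.526). Without control 5 it rose by 1.49 (edgeR adjusted p = 0.00118), with a mean level 2.75-fold that of controls 6 and 7, and with control 5 as the only control the sign turned, at -0.27 (edgeR adjusted p = 0.900). Irf1 and the antisense gene Gm17334 share 3.40% of the exon bases of Irf1.

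Socs1 (chromosome 16, 10782240 to 10785536), whose protein blocks JAK kinases and so limits interferon signalling, had counts of 90, 7 and 2 in controls 5, 6 and 7 and of 100, 76 and 139 in GOX_DOX tumors. Its levels were 3.95, 0.594 and 0.215 CPM in control tumors and 4.94, 3.72 and 7.23 CPM in GOX_DOX tumors, so that control 5 lay just above GOX_DOX tumor 2. The log2 fold change of Socs1 was 1.67 (SE 0.95), with an edgeR adjusted p of 0.385. Without control 5 it rose by 3.67 (edgeR adjusted p = 0.0023), which rests on the 7 and 2 counts of controls 6 and 7. With control 5 as the only control it was 0.44 (edgeR adjusted p = 0.912).

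The genes of the 3 CXCR3 ligands lie side by side on the minus strand of chromosome 5. Cxcl9 (92321347 to 92328079) had the highest counts of them, with 3600, 270 and 191 in control tumors 5, 6 and 7 and 2065, 2333 and 4542 in GOX_DOX tumors 1, 2 and 5. Its levels were 158, 22.9 and 20.6 CPM in control tumors and 102, 114 and 236 CPM in GOX_DOX tumors. Control 5 exceeded GOX_DOX tumors 1 and 2, while controls 6 and 7 lay far below every other library. The means were 67.1 ± 78.7 and 151 ± 74.2 CPM (SD, n = 3 each), and the log2 fold change of Cxcl9 was 1.17 (SE 0.88, edgeR adjusted p = 0.486). Without control 5 it rose by 2.83 (edgeR adjusted p = 0.00162), and with control 5 as the only control it was -0.054 (edgeR adjusted p = 0.989). The mean level in GOX_DOX tumors was 6.95-fold that of controls 6 and 7, and the level in control 5 was 7.27-fold that of the same libraries.

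Cxcl10 (92346638 to 92348889), the ligand gene with both an ISRE and a kappaB match, stood at 19.8, 3.39 and 4.20 CPM in controls 5, 6 and 7 and at 22.8, 18.1 and 27.3 CPM in GOX_DOX tumors. The order of the libraries was close to that of Ifng, with control 5 between GOX_DOX tumors 2 and 1. For Cxcl10 the log2 fold change was 1.30 (SE 0.71, edgeR adjusted p = 0.370). Without control 5, Cxcl10 rose by 2.62 (edgeR adjusted p = 0.000407), the smallest adjusted p of the 9 genes in that fit. With control 5 as the only control it was 0.21 (edgeR adjusted p = 0.927). Cxcl10 shares 5.91% of its exon bases with Art3 on the opposite strand, which had 17 to 63 counts per library.

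Cxcl11 (92359544 to 92365485) stood at 5.18, 2.71 and 4.95 CPM in control tumors and at 5.24, 5.98 and 10.7 CPM in GOX_DOX tumors. The groups were apart only by the margin between 5.18 CPM in control 5 and 5.24 CPM in GOX_DOX tumor 1. The log2 fold change of Cxcl11 was 0.77 (SE 0.42, edgeR adjusted p = 0.374), and without control 5 it was 0.97 (edgeR adjusted p = 0.114). The annotation of the GRCm38 reference genome lists Cxcl11 as a polymorphic pseudogene, and whether this holds for the C3H mice used here was not tested. Of its exon bases, 41.7% overlap the pseudogene Gm2673 on the opposite strand, which had 0 counts in all 6 libraries. The use of strand in counting was not given in the sources used here, so reads of this overlap may have been left out.

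The balance among the 3 ligand genes was compared per length. In the 6 libraries, Cxcl9 made up 68.3% to 84.0% of the 3 ligand transcripts and Cxcl10 13.0% to 22.3%. Cxcl11 made up 7.29% and 13.1% in controls 6 and 7, but 2.18% in control 5 and 3.01% to 3.32% in the GOX_DOX tumors. Controls 6 and 7, the libraries low in Cxcl9 and Cxcl10, were thus those with the highest share of Cxcl11.

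Cxcr3 (chromosome X, 101731535 to 101734269), the receptor of all 3 ligands, was the member of the axis with a negative fold change. It stood at 1.71, 3.31 and 1.72 CPM in controls 5, 6 and 7 and at 0.890, 1.47 and 3.12 CPM in GOX_DOX tumors 1, 2 and 5. The highest value belonged to control 6, where Cxcl9 and Cxcl10 were low, and GOX_DOX tumors 1 and 2 lay below every control. Its log2 fold change was -0.30 (SE 0.57, edgeR adjusted p = 0.769), and it turned positive with library totals in place of TMM (0.27). Without control 5 it was -0.44 (edgeR adjusted p = 0.569), in a fit that called Cxcl9 and Cxcl10, and the difference between receptor and ligands was not tested. The ratio of Cxcl9 to Cxcr3 per length was 53.0, 3.97 and 6.85 in control tumors 5, 6 and 7 and 65.8, 44.6 and 43.5 in GOX_DOX tumors.

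**Figure D3:**
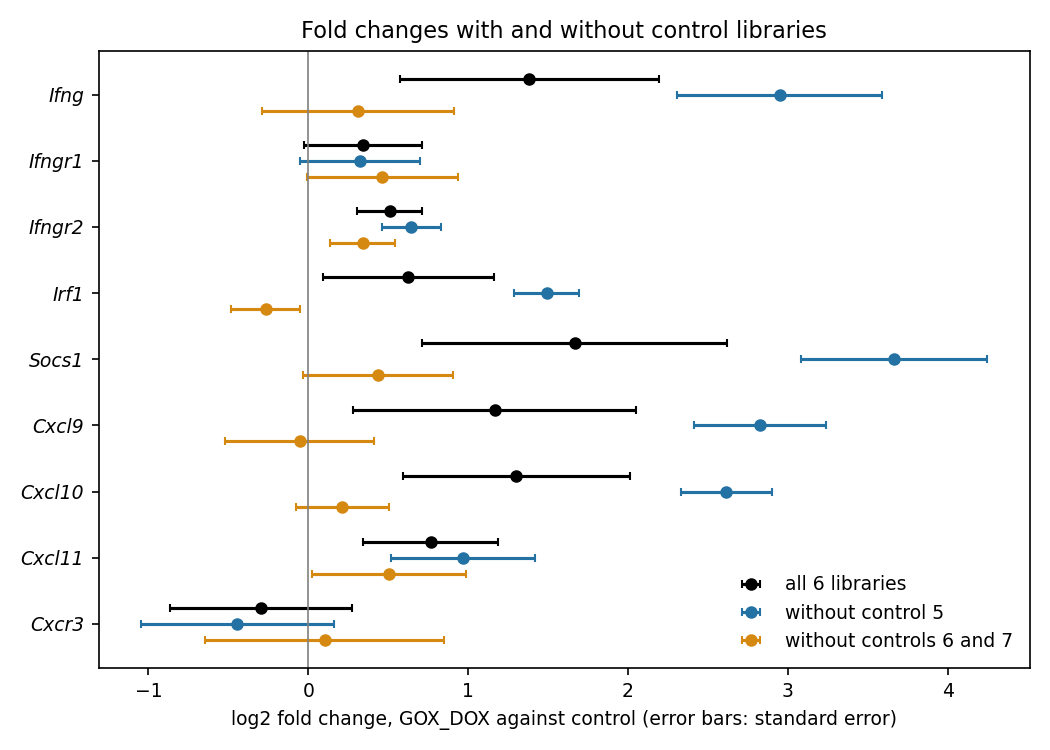
Log2 fold change of each gene, GOX_DOX against control (horizontal axis), from edgeR with all 6 libraries (black), without control 5 (blue) and with control 5 as the only control (orange); bars are standard errors. Without control 5 the values of Ifng, Socs1, Cxcl9 and Cxcl10 lie between 2.62 and 3.67, and with control 5 as the only control they lie between -0.054 and 0.44.

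The dependence on control 5 held for most of the axis. Without control 5, edgeR called 6 of the 9 genes, all higher in GOX_DOX tumors, beside 22.2% of all 16249 genes called higher in that fit. The 6 genes were Ifng, Ifngr2, Irf1, Socs1, Cxcl9 and Cxcl10. In the same 5 libraries the groups did not overlap for 7 of the 9 genes, but this was also the case for 71.9% of all genes. With control 5 as the only control, edgeR called 0 of the 9 genes (adjusted p from 0.885 to 0.989, and 0 at an unadjusted p under 0.05). Over all 16849 genes of that fit, 0.0% were called and 5.47% had an unadjusted p under 0.05, so that the count of the 9 says little about them. It is a fit in which the lone control is assumed to vary like the GOX_DOX tumors. With limma voom and sample quality weights, 8 of the 9 were called beside 60.2% of all genes. There, 7 were higher and Cxcr3 fell by 1.38 (adjusted p = 0.0328 from limma).

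Per kilobase of exon, the order of mean levels in GOX_DOX tumors began with Cxcl9 at 50.03 ± 24.6 CPM per kb and Irf1 at 48.7 ± 6.60 CPM per kb. These neighbours did not differ beyond their spread. Ifngr1 followed at 28.9 ± 13.8 CPM per kb and Ifngr2 at 18.7 ± 1.91 CPM per kb, within the spread of Ifngr1 between tumors. Within each GOX_DOX tumor Ifngr1 was nonetheless the higher, with ratios of 1.23, 2.30 and 1.08 in tumors 1, 2 and 5. Then came Cxcl10 at 10.1 ± 2.04 CPM per kb, which lay below Ifngr2 in every GOX_DOX tumor. Ifng at 2.0 ± 0.807, Cxcl11 at 1.92 ± 0.776, Socs1 at 1.82 ± 0.613 and Cxcr3 at 1.06 ± 0.669 CPM per kb closed the order and overlapped with each other (SD, n = 3 each). In control tumors Irf1 at 31.5 ± 23.9 CPM per kb stood above Ifngr1 at 22.8 ± 4.33 and Cxcl9 at 22.3 ± 26.1 CPM per kb, with overlapping ranges and an SD of Cxcl9 larger than its mean. That order rests on control 5, since Irf1 at 18.3 and 17.1 CPM per kb lay below Ifngr1 at 27.7 and 19.5 CPM per kb in controls 6 and 7.

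Ifng and Cxcr3 are transcribed mainly in lymphocytes, so both were set against the counts of 10 T cell markers. The summed level of these markers was 90.7, 57.1 and 29.8 CPM in control tumors 5, 6 and 7 and 123, 135 and 184 CPM in GOX_DOX tumors 1, 2 and 5. Of the 10, 7 were higher at an unadjusted p under 0.05 (2.87% of all genes), 0 had an adjusted p under 0.05 (edgeR), and 9 were higher without overlap between groups (8.87% of all genes). Their median log2 fold change was 1.37. DESeq2 gave 4 of the 10 an adjusted p under 0.05, all higher, beside 0.567% of all genes called higher. Without control 5, edgeR called 8 of the 10, all higher, beside 22.2% of all genes called higher. Cd3e, a subunit of the T cell receptor complex, stood at 11.3, 7.97 and 5.49 CPM in control tumors and at 17.7, 20.2 and 29.5 CPM in GOX_DOX tumors. The 6 NK cell markers summed to 12.6, 5.94 and 4.52 CPM in control tumors and to 16.0, 8.72 and 27.1 CPM in GOX_DOX tumors, with Klra8 at 0 in all 6 libraries. The pan-leukocyte gene Ptprc stood at 116, 69.2 and 39.3 CPM and at 90.8, 115 and 116 CPM. The part of T cell number in the levels of Ifng and its targets was not tested.

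Per 1000 T cell marker counts, Ifng gave 23.2, 4.46 and 14.4 counts in controls 5, 6 and 7 and 23.7, 10.5 and 18.6 counts in GOX_DOX tumors. The groups overlapped, with a log2 difference of 0.43 (exact permutation test, two-sided, p = 0.6). The sign of this difference turned without control 6, at -0.21. Per 1000 T cell marker counts, Cxcr3 gave 18.9, 58.0 and 57.8 counts in controls 5, 6 and 7 and 7.23, 10.9 and 17.0 counts in GOX_DOX tumors. Every GOX_DOX tumor lay below every control, control 5 included, with a log2 difference of -1.86 (exact permutation test, two-sided, p = 0.1, the smallest possible here). The groups were apart only by the margin between 18.9 in control 5 and 17.0 in GOX_DOX tumor 5. These values rest on 39 and 60 Cxcr3 counts, with 95% counting intervals of 27.7 to 53.3 and 45.8 to 77.2. That margin is within counting error. Controls 6 and 7 had 39 and 16 Cxcr3 counts. The log2 difference of Cxcr3 was -1.83 with NK cell markers added to the denominator and -1.89 with Cd3e alone. It lay between -2.40 and -1.56 with any of the 6 libraries left out, and each of these values kept control 6 or control 7. The ratios were not compared with control 5 as the only control. For Cxcr3, control 5 at 18.9 lay nearer to the GOX_DOX tumors than to controls 6 and 7. The denominators of controls 6 and 7 were 673 and 277 counts, against 2068 to 3539 in the other libraries. The 2 ratios were the whole family of such tests, and neither can reach 0.05.

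**Figure D4:**
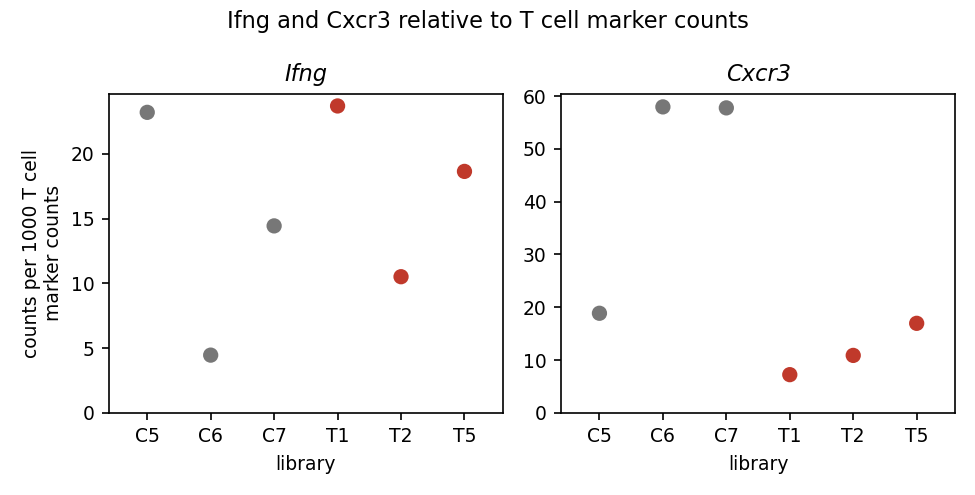
Counts of Ifng (left) and Cxcr3 (right) per 1000 summed counts of 10 T cell markers (vertical axes, starting at 0) in control libraries C5, C6 and C7 (grey) and GOX_DOX libraries T1, T2 and T5 (red). Cxcr3 lies between 7.23 and 17.0 in GOX_DOX libraries and between 18.9 and 58.0 in controls, whereas the groups of Ifng overlap.

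The other genes of the pathway were followed in 5 lists, in none of which a gene had an adjusted p under 0.05 with all 6 libraries in edgeR. DESeq2 gave 1 such gene in the list of interferon gamma production and 6 in the type I interferon list, all higher. In the list of other CXC genes it gave 1, which was lower, and in the remaining lists 0. Of the 17812 genes with an adjusted p from DESeq2, 101 (0.567%) were called higher and 1579 lower. The list of interferon gamma production, cytokines and factors that drive the Ifng gene, had 14 of 15 genes kept. Of these, 3 were higher and 0 lower at an unadjusted p under 0.05 (edgeR), beside 2.87% of all genes higher and 14.6% lower. The median log2 fold change of the list was 1.10. Eomes, a T-box factor of cytotoxic lymphocytes, stood at 4.39, 4.49 and 3.98 CPM in control tumors and at 7.61, 11.3 and 10.0 CPM in GOX_DOX tumors (log2 fold change 1.17, edgeR adjusted p = 0.247). Here control 5 was as low as controls 6 and 7, unlike for Ifng. The values of Stat4, which relays IL-12 signals, of Il2rb, a chain of the receptors of IL-2 and IL-15, and of Il12b, an IL-12 subunit, were 1.16, 1.45 and 2.13 on the log2 scale, each without overlap between groups. Without control 5, 8 genes of this list rose and 1 fell (edgeR adjusted p under 0.05 each), beside 22.2% of all genes called higher and 25.5% called lower.

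Receptor signalling was the list with the smallest shift. Of its 11 genes, 0 were higher and 1, Irf2, was lower at an unadjusted p under 0.05 (edgeR). Over all genes, 2.87% were higher and 14.6% lower at this threshold. The median log2 fold change of the list was 0.23. Jak1 and Jak2, the receptor kinases, had log2 fold changes of 0.04 and 0.23. Irf2, a repressor of interferon targets, was at 70.5 CPM in control 5 and 66.7 to 75.5 CPM in GOX_DOX tumors but at 185 CPM in control 6 and 207 CPM in control 7 (log2 fold change -1.09). The negative regulators Socs3 and Ptpn2 had log2 fold changes of 1.29 and 0.38. Without control 5, 2 genes of the list rose and 1 fell (edgeR adjusted p under 0.05 each), beside 22.2% of all genes called higher and 25.5% called lower.

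All 20 genes of the list induced by interferon gamma were kept, with a median log2 fold change of 0.91. At an unadjusted p under 0.05 (edgeR), 4 were higher and 0 lower, beside 2.87% of all genes higher and 14.6% lower. The groups were apart for 10, all higher in GOX_DOX tumors, beside 8.87% of all genes. Psmb8 and Psmb10, subunits of the immunoproteasome, had log2 fold changes of 1.18 and 0.69, and Fcgr1, a high-affinity IgG receptor, had 1.18. Nos2, the inducible nitric oxide synthase, stood at 3.47, 0.254 and 0.215 CPM in control tumors and at 7.41, 16.7 and 6.92 CPM in GOX_DOX tumors (log2 fold change 2.88, edgeR adjusted p = 0.261), with 3 and 2 counts in controls 6 and 7. The mean level of the list was 5.85, 4.38 and 3.88 log2 CPM in control tumors 5, 6 and 7 and 5.83, 6.00 and 6.04 log2 CPM in GOX_DOX tumors. Control 5 thus lay within the range of the GOX_DOX tumors. Without control 5, 18 of the 20 genes rose (edgeR adjusted p under 0.05 each), beside the 22.2% of all genes, and with control 5 as the only control the median was 0.14.

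The list of type I interferon and its induced genes, a related pathway with its own receptor, showed another order of libraries. Of 13 genes kept from 14, 9 were higher and 0 lower at an unadjusted p under 0.05 (edgeR), beside 2.87% of all genes higher and 14.6% lower. The median log2 fold change was 0.98, and the groups were apart for 8, all higher, beside 8.87% of all genes. Ifit1, which binds foreign RNA, stood at 20.0, 18.5 and 25.3 CPM in control tumors and at 93.2, 94.9 and 49.8 CPM in GOX_DOX tumors (log2 fold change 1.90, edgeR adjusted p = 0.247). Ifit3, Rsad2 and Isg15 had log2 fold changes of 1.86, 1.39 and 1.19, also without overlap. The mean level of this list was 3.84, 4.33 and 4.38 log2 CPM in control tumors 5, 6 and 7 and 5.13, 5.24 and 4.60 log2 CPM in GOX_DOX tumors. Control 5 was thus the lowest library, below controls 6 and 7. Without control 5, 7 genes of the list rose and 2 fell (edgeR adjusted p under 0.05 each), with a median of 0.89. In that fit 22.2% of all genes were called higher and 25.5% lower. With control 5 as the only control the median log2 fold change was 1.29, against 0.14 for the list induced by interferon gamma. The difference between the lists was not tested.

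**Figure D5:**
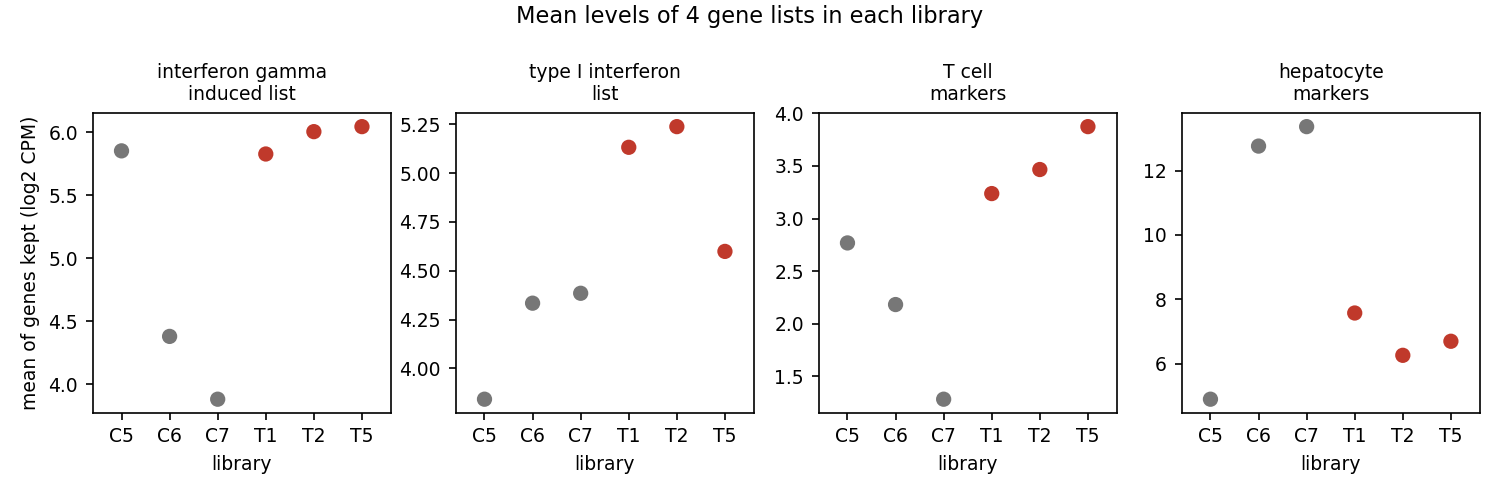
Mean log2 CPM of the genes kept in 4 lists (vertical axes, each with its own range) in control libraries C5, C6 and C7 (grey) and GOX_DOX libraries T1, T2 and T5 (red). Control 5 lies at 5.85 in the list induced by interferon gamma, within the GOX_DOX libraries (5.83 to 6.04), and at 3.84 in the type I interferon list, below every other library; the hepatocyte markers separate controls 6 and 7 from the other libraries.

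Of the other CXC chemokines and receptors, 15 of 19 genes were kept, with a median log2 fold change of 0.42. At an unadjusted p under 0.05 (edgeR), 2 were higher and 1 lower, beside 2.87% of all genes higher and 14.6% lower. Dpp4, whose peptidase trims and inactivates CXCR3 ligands and which hepatocytes also carry, stood at 8.82, 196 and 299 CPM in controls 5, 6 and 7 and at 7.45 to 9.64 CPM in GOX_DOX tumors (log2 fold change -4.31, edgeR adjusted p = 0.247). It was high in the libraries with high hepatocyte markers, as was Cxcl12 (20.6, 546 and 676 CPM in control tumors, 21.2 to 122 CPM in GOX_DOX tumors, log2 fold change -2.82). The part of liver tissue in these values was not tested. Cxcr6, a chemokine receptor of resident T cells, stood at 17.1, 11.2 and 8.72 CPM in control tumors and at 19.5, 26.7 and 34.8 CPM in GOX_DOX tumors (log2 fold change 1.13), without overlap, in contrast to the overlapping levels of Cxcr3. Ackr3, a scavenging receptor of CXCL11 and CXCL12, had a log2 fold change of 2.16. Without control 5, 7 of the 17 genes of this list in that fit rose and 2 fell (edgeR adjusted p under 0.05 each). Of all genes in the same fit, 22.2% were called higher and 25.5% lower.

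Markers of other cells that could carry or induce the axis were set beside it. The summed level of 7 dendritic cell markers was 138, 50.7 and 35.8 CPM in control tumors 5, 6 and 7 and 92.4, 71.5 and 112 CPM in GOX_DOX tumors, an order in which control 5 was the highest library, as for Irf1. The 7 macrophage markers summed to 852, 836 and 508 CPM in control tumors and to 798, 1917 and 1177 CPM in GOX_DOX tumors, with the highest value in GOX_DOX tumor 2, as for Ifngr1. The 6 proliferation markers summed to 885, 257 and 37.6 CPM in control tumors and to 779, 620 and 776 CPM in GOX_DOX tumors, so that controls 6 and 7 were low in them, as they were in Ifng, Irf1, Socs1, Cxcl9 and Cxcl10. With the mean log2 level of the hepatocyte markers as a covariate, edgeR called 0 of the 9 genes, as it did 0.0% of all genes. At an unadjusted p under 0.05 there were 2 of the 9, Cxcl10 (log2 fold change 0.82, edgeR unadjusted p = 0.0327) and Socs1 (1.23, edgeR unadjusted p = 0.0394), beside 8.07% of all genes, while Ifng, Irf1 and Cxcl9 had 1.00, 0.15 and 0.61.

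The genes with levels most like that of Ifng over the 6 libraries, by Pearson's r of log2 CPM among 12713 genes, were Smn1, Fam98b, Thoc5, Polr3d and Cct7 (r from 0.996 to 0.999). For Cxcl9 they were Pak4, Ubd, Nfkbid, Ensa and Ikzf5 (r from 0.994 to 0.997). These values describe 6 libraries in which controls 6 and 7 lie apart from the other 4, and they carry no test.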

How the data were processed

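RNA of 3 control and 3 GOX_DOX tumors was analysed, grouped by their labels. The authors deposited raw counts per gene and, as a signal table, those counts after division by library size factors of 0.532 to 1.322. The submitters' processing notes name Trimmomatic 0.38, HISAT2 2.1.0 and featureCounts 2.0.0, whereas the supporting methods name TopHat and HTSeq. The genome build, annotation and use of strand are not given in the sources used here. Positions and exon lengths were taken from GENCODE M21 on GRCm38, and upstream windows from RefSeq on GRCm38.p6.

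The filterByExpr filter and TMM scaling preceded the quasi-likelihood test of edgeR 4.0.16 in R 4.3.3, with Benjamini-Hochberg adjustment over all genes kept and a threshold of 0.05. Log2 CPM used a prior count of 2, and the edgeR fits kept their own default prior count. Depth was 15529940 to 18401178 counts, so that 3 counts were taken as the least that a library could show, which covers counting error only. Ratios to T cell marker counts had 0.5 added to the numerator and were tested with two-sided exact permutation tests in scipy 1.17.1, with a smallest p of 0.1. Nothing states that tumors of a group were handled separately, and p-values measure the spread between these libraries.

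Alternatives were DESeq2 1.42.0, limma 3.58.1 voom with sample quality weights, 3 other scalings, 2 other filters, a hepatocyte covariate, other ratio denominators, and leaving out libraries. The steps were tested on simulated counts. Genes named were the 9 of the axis, the 4 kept genes of each list with the smallest p, Jak1 and Jak2, the 5 genes most like Ifng and the 5 most like Cxcl9, and marker genes beside a result. An item that this rule names is left out here. The members, lists and rules were chosen with earlier results of these data known.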

Additional observations from a re-analysis of the deposited data

How the results depend on the processing

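Of the log2 fold changes of the 9 genes under the alternatives, 113 kept their sign and side of the threshold, 14 passed it and 8 changed sign. The sign changes were those of Ifngr1 with limma voom and sample quality weights (-0.22) and without GOX_DOX tumor 2 (-0.10), of Irf1 (-0.27), Cxcl9 (-0.054) and Cxcr3 (0.10) without controls 6 and 7, and of Cxcr3 with library totals (0.27), without control 6 (0.082) and without GOX_DOX tumor 1 (0.058). With libraries left out, Ifngr1 lay between -0.10 and 0.57 and Cxcr3 between -0.88 and 0.082. The number of the 9 genes with an adjusted p under 0.05 was 8 with limma voom and 0 to 6 with a library left out, the 6 without control 5. At an unadjusted p it was 8 with limma voom, 2 with the hepatocyte covariate, 0 with library totals, with no filter and without controls 6 and 7, and 0 to 6 with a library left out. An unadjusted p under 0.05 was reached by 9984 of all 15374 genes with limma voom. Without control 5 it was reached by 9026 of 16249, and with the covariate by 1240 of 15374. Genes of the axis without overlap numbered 2 to 7, the 7 without control 5, where 71.9% of all genes were apart. With any other library left out, 19.1% to 29.3% of all genes were apart. Over all genes at an adjusted p under 0.05, DESeq2 called 1680, limma voom 9254, and fits with a library left out 0 to 7745, the last without control 5. Ifng per T cell marker counts lay between -0.21 (without control 6) and 0.88, and Cxcr3 between -2.40 and -1.56, with control 6 or control 7 always kept. Library totals in place of TMM moved the median of all genes from 0.02 to 0.51, and the upper quartile moved it to 0.19. The causes were not tested. Ifng and Socs1 had 7 or fewer counts in controls 6 and 7, which limits their fold changes. No paired analysis was possible because the groups share only 1 library number.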
